A study of Mus musculus with 12 samples.

Results

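The genes described here encode the initiation and elongation factors of translation in mouse NIH3T3 fibroblasts, with a few proteins named after these factors. They were chosen by name: every gene on the arrays with 1 annotated symbol that starts with Eif or Eef and a digit was taken, and the kinases Eif2ak1 to Eif2ak4 and Eef2k, the genes Eif4ebp1 and Eif4ebp2 and pseudogenes were left out. This gave 54 of the 19938 genes measured. The list holds 3 genes of eIF1 and eIF1A, 3 of eIF2, 5 of eIF2B, 11 of eIF3, 13 of eIF4, 4 of eIF5, 5 of eEF1, 1 each of eIF6 and eEF2, and 8 others (Eif1ad, Eif2a, Eif2d, and the methyltransferases Eef1akmt1, Eef1akmt2, Eef1akmt3, Eef1aknmt and Eef2kmt). Eef1e1 was placed with eEF1 by its name. The factors Eif1, Eif2s1, Eif3g, Eif3j1, Eif3j2, Eif4g1 and Eef1g were not analysed here.

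The study asked how gene expression changes when UBF, the RNA polymerase I transcription factor encoded by Ubtf, is depleted. NIH3T3 is an immortalised line of mouse fibroblasts, so all samples share 1 genetic background. The 4 groups had 3 arrays each, described in the labels as biological replicates. Mock cells received the transfection reagent Dharmafect 2 with no siRNA, sirEGFP cells a control siRNA named for EGFP, and the other groups an siRNA against UBF, sirUBF oligo #1 or sirUBF oligo #2. The siRNA dose was 40 nM, and total RNA was taken 48 hours after transfection in every group. The values are log2 array signals, so a difference of 1 is a 2-fold change. Levels of different genes are read by different probes, so a gene's level is set against others only as a coarse rank among all genes. Signals come from bulk RNA, in which fewer cells of a type and less RNA per cell cannot be told apart.

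Translation starts when eIF2 brings the initiator tRNA, as a complex with GTP, to the small ribosomal subunit, where eIF1, eIF1A, eIF3 and eIF5 assemble around it. The eIF4 factors bind the cap of the mRNA and unwind its leader. eIF5 then triggers GTP hydrolysis by eIF2, eIF5B joins the large subunit, and eIF2B recharges eIF2 with GTP. During elongation eEF1A delivers aminoacyl-tRNAs, the other eEF1 subunits renew its GTP, and eEF2 moves the ribosome along the mRNA. Many of these factors are among the abundant proteins of growing fibroblasts, and UBF acts on the supply of the ribosomes they serve.

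The RefSeq sequence upstream of the annotated start is shown for the 4 factor genes that passed the test in some comparison, because the results turn on them. Capitals mark GGGCGG (or CCGCCC, its reverse complement), a GC box of the kind Sp1 binds, and CACGTG, the E-box of Myc and related factors. Each window is the 250 bases before the start in GRCm38.p6, read 5′ to 3′ on the gene's strand: Eif5 at chr12:111537851-111538100 (plus), Eif5b at chr1:37997760-37998009 (plus), Eif1b at chr9:120492356-120492605 (plus) and Eef1e1 at chr13:38659029-38659278 (minus).
Eif5: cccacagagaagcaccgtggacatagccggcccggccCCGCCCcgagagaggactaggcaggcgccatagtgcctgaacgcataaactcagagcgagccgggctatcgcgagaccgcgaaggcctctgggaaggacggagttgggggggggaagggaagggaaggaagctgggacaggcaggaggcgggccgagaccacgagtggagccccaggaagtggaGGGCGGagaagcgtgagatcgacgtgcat
Eif5b: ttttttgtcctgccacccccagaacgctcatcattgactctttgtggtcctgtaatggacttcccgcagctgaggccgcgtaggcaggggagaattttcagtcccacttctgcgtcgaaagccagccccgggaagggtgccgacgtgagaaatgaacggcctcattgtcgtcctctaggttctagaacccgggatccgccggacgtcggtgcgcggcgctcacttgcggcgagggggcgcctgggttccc
Eif1b: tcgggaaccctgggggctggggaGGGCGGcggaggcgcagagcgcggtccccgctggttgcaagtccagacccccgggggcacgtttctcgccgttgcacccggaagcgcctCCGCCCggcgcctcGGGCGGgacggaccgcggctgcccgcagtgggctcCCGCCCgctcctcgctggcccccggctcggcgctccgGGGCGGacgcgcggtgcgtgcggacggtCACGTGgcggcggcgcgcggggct
Eef1e1: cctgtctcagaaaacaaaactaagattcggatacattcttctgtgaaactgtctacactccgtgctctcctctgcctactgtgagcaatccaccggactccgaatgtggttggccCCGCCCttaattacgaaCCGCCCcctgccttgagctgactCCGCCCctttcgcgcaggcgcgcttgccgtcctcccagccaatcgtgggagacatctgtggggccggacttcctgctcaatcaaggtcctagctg

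The GC box occurred 2 times in the Eif5 window, 5 times in that of Eif1b and 3 times in that of Eef1e1, and these letters were not found in the Eif5b window. Only the Eif1b window of these 4 held the E-box, once. The G and C content was 66.4% for Eif5, 61.2% for Eif5b, 80.4% for Eif1b and 56.8% for Eef1e1. By these measures the 3 genes that differed between the UBF siRNAs (Eif5, Eif5b and Eif1b) have unlike upstream windows.

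As a coarse check of the cell type, limited by the different probes and an unknown background, all 8 fibroblast markers (such as Col1a2, Fn1 and Vim) were above the median of all genes, against 1 of 5 epithelial, 1 of 5 macrophage, 2 of 4 adipocyte and 2 of 4 skeletal muscle markers. Array medians lay between 5.38 and 5.54. Ubtf itself was 8.54, 8.63 and 8.41 in Mock cells, 8.68, 8.31 and 8.04 in sirEGFP cells, 8.0, 7.74 and 7.64 after oligo #1 and 7.90, 7.83 and 7.49 after oligo #2. All 6 knockdown arrays were below all 6 control arrays. Against sirEGFP the difference in Ubtf did not pass the test, at -0.55 ± 0.17 (SE) for oligo #1 (adjusted p = 0.107) and -0.61 ± 0.17 for oligo #2 (adjusted p = 0.0771), whereas against Mock it did (adjusted p = 0.0252 and 0.0146). With the replicate number as a block in limma, it also passed against sirEGFP (adjusted p = 0.0172 and 0.0115). The labels do not give the replicate numbers as pairs. Within groups, 1 axis held 41.5% of the variance over all genes, and oligo #1 replicates 1 and 2 and sirEGFP replicate 1 lay farthest out on it (scores of -26.8, 28.5 and -23.5). Results that rest on these 3 arrays are given with and without them.

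Few translation factor genes changed with either UBF siRNA. With oligo #1, Eif5 and Eif5b, which act at start codon recognition and subunit joining, fell by 0.55 and 0.66 against sirEGFP. With oligo #2, Eef1e1, which encodes an auxiliary protein of the tRNA synthetase complex, fell by 0.70. No factor gene was called higher against sirEGFP with either siRNA, beside 1.04% of all genes with oligo #1 and 1.52% with oligo #2. For each gene the change was tested with limma over 12 arrays and all 19938 genes, and called at an adjusted p below 0.05. With 3 arrays a group, the number of arrays limits the precision: the SE of a difference between 2 groups was between 0.10 and 0.31 for the 54 genes, with a median of 0.14.

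For oligo #1 against sirEGFP, 2 of the 54 genes (3.70%) were called, both lower, beside 2.47% of all genes in either direction, 1.04% higher and 1.43% lower. For oligo #2 against sirEGFP, 1 of 54 (1.85%) was called, also lower, beside 2.26% of all genes in either direction, 1.52% higher and 0.742% lower. These shares rest on 1 or 2 genes and are near the background. For the mean of both siRNAs against sirEGFP, none of the 54 was called by limma, with 1 higher and 5 lower at an unadjusted p below 0.05, beside 1.93% of all genes called (1.21% higher and 0.722% lower) and 13.2% at that unadjusted p. At the unadjusted p, 2 factor genes were higher and 4 lower with oligo #1 and 1 higher and 6 lower with oligo #2, beside 13.4% and 12.9% of all genes. The comparisons share the 3 sirEGFP arrays and are not independent of each other. Among the genes above the median in mean signal, where 48 of the 54 factor genes lie, 4.62% of all genes were called for oligo #1 and 4.19% for oligo #2.

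**Figure D1:**
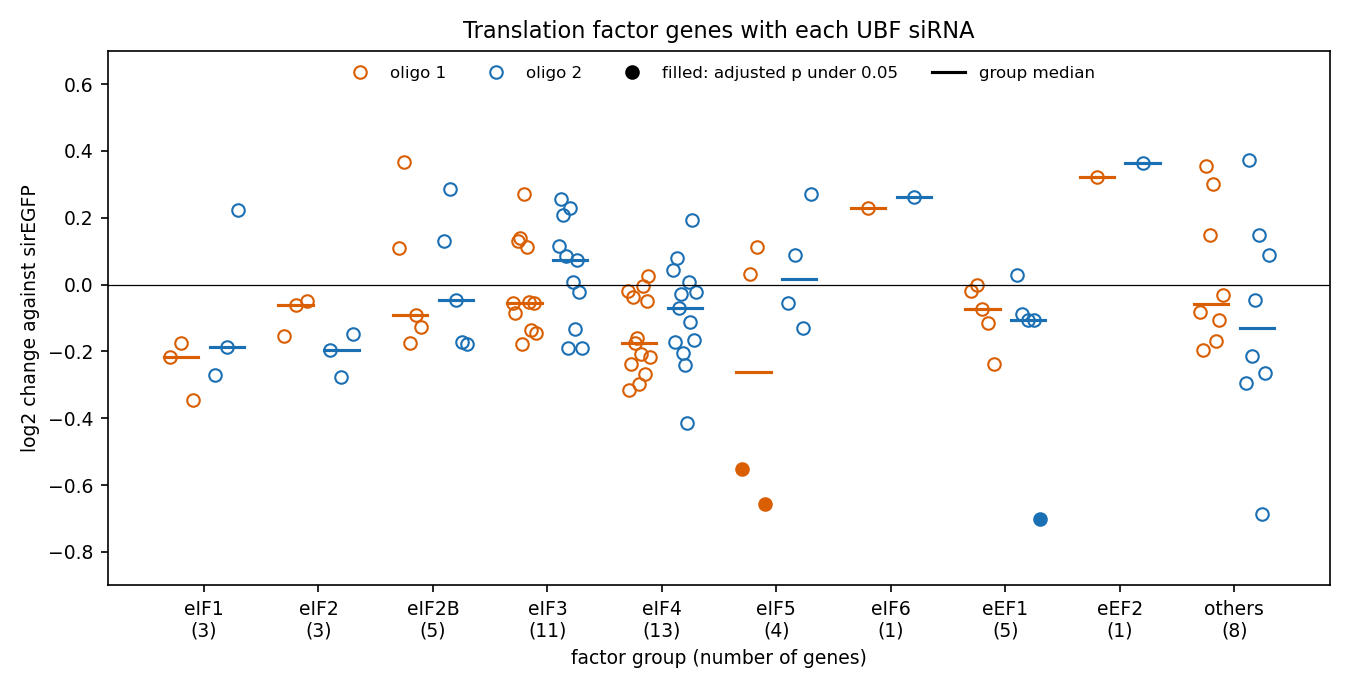
Log2 change of each of the 54 factor genes against sirEGFP (vertical axis), by factor group (horizontal axis), for oligo #1 and oligo #2; filled points passed the test and lines mark group medians. The filled points are Eif5 and Eif5b with oligo #1 and Eef1e1 with oligo #2.

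The median change of the 54 genes was -0.077 with oligo #1 (all genes 0.022) and -0.051 with oligo #2 (all genes -0.0077). Values below 0 were found for 40 of the 54 genes (74.1%) with oligo #1, beside 44.9% of all genes, and for 32 (59.3%) with oligo #2, beside 51.7% of all genes. No factor gene had all 6 knockdown arrays above, or all 6 below, the 6 control arrays, against 1.43% (above) and 0.692% (below) of all genes. All 3 oligo #1 arrays were above the 3 sirEGFP arrays in 2 factor genes and below them in 9, beside 8.33% and 7.18% of all genes. All 3 oligo #2 arrays were above the sirEGFP arrays in 5 factor genes and below them in 9, beside 9.83% and 8.62% of all genes. Most of these genes did not pass the test. Against Mock, 2.75%, 4.25% and 3.3% of all genes were called for oligo #1, oligo #2 and their mean, and against the mean of both control groups 3.78%, 4.91% and 4.93%.

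Among the factors that act at the start codon, Eif5 was lower with oligo #1 than in every other group. Eif5, the GTPase-activating protein of eIF2, was 11.01, 11.09 and 11.20 in Mock cells, 11.06, 11.30 and 11.38 in sirEGFP cells, 10.55, 10.82 and 10.70 after oligo #1, and 10.99, 11.31 and 11.28 after oligo #2. The 3 oligo #1 arrays were below the 9 others. Of the oligo #2 arrays, 2 lay within the range of the controls and 1 just under it. Against sirEGFP, Eif5 fell by 0.55 ± 0.13 (SE) with oligo #1 (limma, adjusted p = 0.0367), a change of -31.8% on the linear scale. The difference with oligo #2 was -0.054 ± 0.13 (adjusted p = 0.927). The Mock arrays gave a smaller difference for oligo #1, -0.41 with an adjusted p of 0.134, so the call depends on the control group. It was also lost in each of 7 fits that left out 1 array, with adjusted p from 0.0504 to 0.172: Mock replicate 1 or 2, sirEGFP replicate 2 or 3, oligo #1 replicate 1 or 3, or oligo #2 replicate 3. Without the 3 outlying arrays the difference was -0.64 (adjusted p = 0.113).

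Eif5b, the GTPase that joins the large subunit, moved to both sides of the controls. Its level was 9.59, 9.45 and 9.88 in Mock cells, 10.08, 9.90 and 10.09 in sirEGFP cells, 9.19, 9.49 and 9.43 after oligo #1, and 10.17, 10.45 and 10.27 after oligo #2. The 3 oligo #2 arrays were above the 9 others, whereas the oligo #1 arrays were below all sirEGFP arrays but overlapped the Mock arrays. With oligo #1, Eif5b fell by 0.66 ± 0.14 against sirEGFP (adjusted p = 0.0194), a change of -36.5% on the linear scale. With oligo #2 the difference from sirEGFP was 0.27 ± 0.14 (adjusted p = 0.439). The control groups themselves differed by 0.38 for Eif5b, with an unadjusted p of 0.0137 and an adjusted p of 0.727. Against Mock, the difference for oligo #1 was -0.27 (adjusted p = 0.429), and Eif5b rose by 0.65 with oligo #2 (adjusted p = 0.0143), a 1.57-fold higher signal. Against the mean of both control groups it fell by 0.46 with oligo #1 (adjusted p = 0.0413) and rose by 0.46 with oligo #2 (adjusted p = 0.0356). The call for oligo #1 was lost without sirEGFP replicate 2 or 3 or oligo #1 replicate 1 or 3 (adjusted p from 0.0513 to 0.0880) and without the 3 outlying arrays (0.216).

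The remaining eIF5 genes showed no called change. Eif5a and Eif5a2 encode the hypusine-containing factor that helps peptide bonds form at difficult sequences. The difference from sirEGFP was 0.032 with oligo #1 and 0.089 with oligo #2 for Eif5a, and 0.11 and -0.13 for Eif5a2. A dimmer probe set of Eif5a, not tested on its own, gave 0.052 with oligo #1 and 0.14 with oligo #2. The median of the 4 eIF5 genes was -0.26 with oligo #1 and 0.017 with oligo #2. The first value falls between the changes of Eif5 and Eif5a.

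Eif1b encodes a close relative of eIF1, the factor that guards start codon choice. Its level was 9.33, 9.38 and 9.47 in Mock cells, 9.22, 9.32 and 9.29 in sirEGFP cells, 8.69, 9.01 and 9.10 after oligo #1, and 9.55, 9.47 and 9.47 after oligo #2. The oligo #1 arrays were below the 9 others, while the oligo #2 arrays were above the 9 others, by a small margin over the highest Mock array. Against sirEGFP, limma gave -0.34 ± 0.12 for oligo #1 (adjusted p = 0.181) and 0.22 ± 0.12 for oligo #2 (adjusted p = 0.476), so neither difference was called. Against the mean of both control groups, Eif1b fell by 0.40 with oligo #1 (adjusted p = 0.0426).

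**Figure D2:**
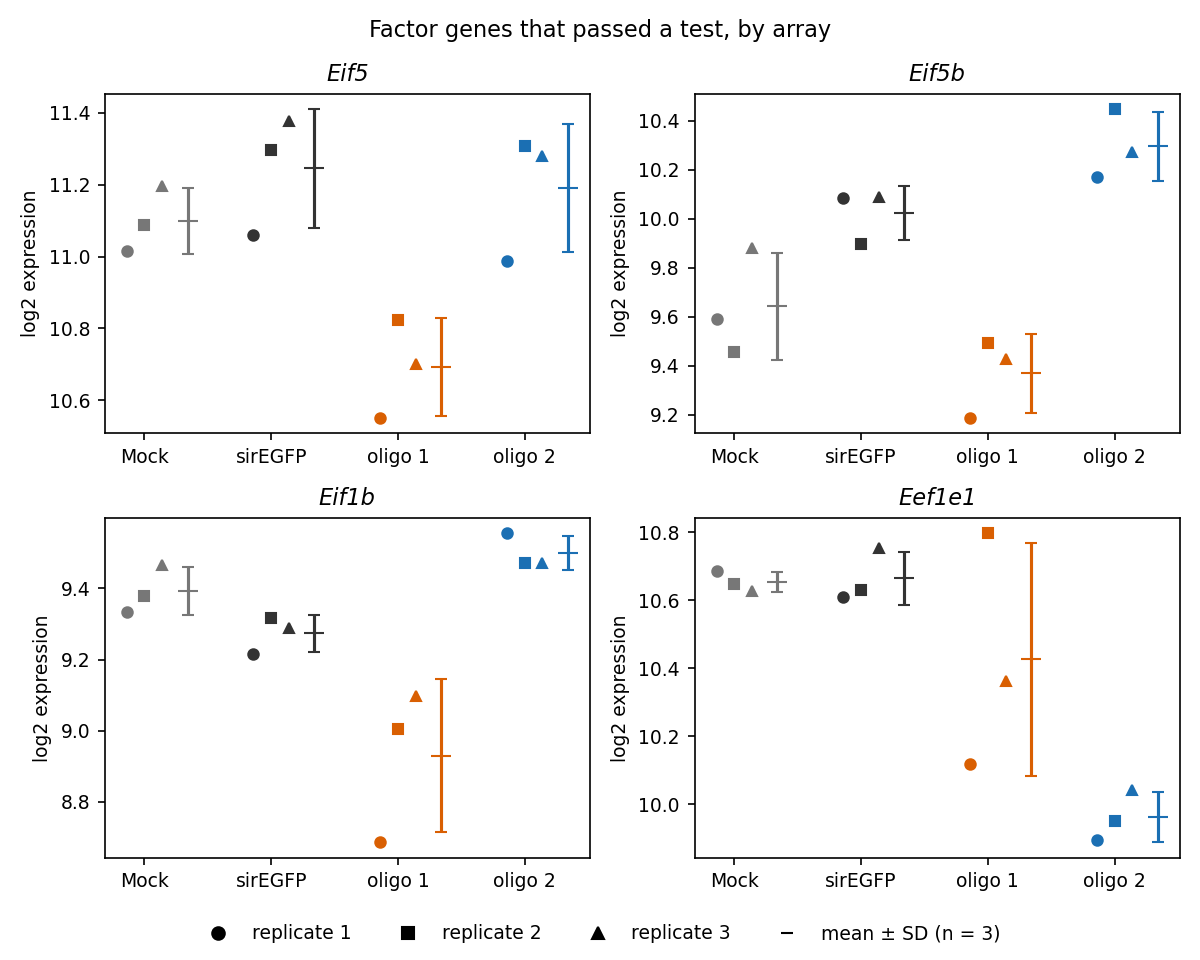
Log2 signal (vertical axis) of Eif5, Eif5b, Eif1b and Eef1e1 on each of the 12 arrays, by group (horizontal axis), with the group mean and SD (n = 3). Oligo #1 arrays are the lowest for Eif5 and Eif1b, oligo #2 arrays are the highest for Eif5b and Eif1b, and oligo #2 arrays are the lowest for Eef1e1.

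Eif1a and Eif1ax encode eIF1A, which works beside eIF1 in scanning. Eif1a was 9.16, 9.18 and 9.37 in Mock cells, 9.35, 9.62 and 9.61 in sirEGFP cells, 9.13, 9.40 and 9.40 after oligo #1, and 9.26, 9.26 and 9.25 after oligo #2. Its mean difference from sirEGFP over both siRNAs was -0.24 ± 0.11 (adjusted p = 0.324), and from Mock it was 0.049. The sirEGFP arrays were themselves 0.29 above Mock (adjusted p = 0.777). Eif1ax was 11.94, 11.90 and 11.90 in Mock cells, 11.94, 11.94 and 11.97 in sirEGFP cells, 11.59, 11.91 and 11.83 after oligo #1, and 11.80, 11.69 and 11.80 after oligo #2. Every knockdown array of Eif1ax was below every sirEGFP array, but 1 oligo #1 array reached the Mock range, and the mean difference of -0.18 ± 0.096 was not called (adjusted p = 0.465).

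Genes of eIF2, the carrier of the initiator tRNA, showed no called change on the probe sets used, beside 2.47% of all genes with oligo #1 and 2.26% with oligo #2. Eif2s3x, the X-linked gene of the gamma subunit, was 11.36, 11.60 and 11.67 in Mock cells, 11.65, 11.81 and 11.72 in sirEGFP cells, 11.56, 11.70 and 11.74 after oligo #1, and 11.40, 11.55 and 11.40 after oligo #2. The oligo #2 arrays were below those of sirEGFP but not below those of Mock, and the difference of -0.28 from sirEGFP was not called (adjusted p = 0.318). Eif2s2, the beta subunit, was 11.65, 11.64 and 11.82 in Mock cells, 11.44, 11.85 and 11.86 in sirEGFP cells, 11.20, 11.90 and 11.58 after oligo #1, and 11.36, 11.68 and 11.51 after oligo #2. On this probe set, the brighter of a pair, all groups overlapped, and the mean difference from sirEGFP was -0.18 ± 0.15 (adjusted p = 0.713). The dimmer probe set of Eif2s2 gave -0.58 for oligo #1 and -0.16 for oligo #2 against sirEGFP, where the one used gave -0.15 and -0.20, so the probe sets of this gene disagree for oligo #1. On the dimmer one, the oligo #1 arrays (9.18, 10.02 and 9.75) were below every sirEGFP and Mock array. The annotation does not say which of them reads Eif2s2 itself. By probe set number, the dimmer one lies beside other genes of the chromosome of Eif2s2. The one used lies among genes of other chromosomes. The dimmer probe set was not tested on its own, so neither value is settled as that of the gene. Eif2s3y, the Y-linked copy, lay between 2.34 and 2.77 on all arrays, with a mean at percentile 0.712 of all genes, and its small differences cannot be told from background signal.

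In eIF2B, the exchange factor of eIF2 that phosphorylated eIF2 inhibits, none of the 5 genes was called. The shares of all genes were 2.47% with oligo #1 and 2.26% with oligo #2. Eif2b5, the catalytic epsilon subunit, was 8.19, 8.41 and 8.18 in Mock cells, 8.33, 8.28 and 8.02 in sirEGFP cells, 8.27, 7.94 and 8.05 after oligo #1, and 8.10, 8.05 and 7.95 after oligo #2. The groups overlapped, and the mean difference from sirEGFP was -0.15 ± 0.11 (adjusted p = 0.648). Eif2b2, the beta subunit, was 7.47, 7.71 and 7.26 in Mock cells, 7.50, 6.91 and 6.57 in sirEGFP cells, 7.94, 6.76 and 7.37 after oligo #1, and 7.66, 7.20 and 6.97 after oligo #2. Its arrays were spread widely within each group, and the mean difference was 0.33 ± 0.24 from sirEGFP (adjusted p = 0.652) but -0.16 from Mock.

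The 11 measured genes of eIF3, the scaffold that holds the initiation complex together, had no called member by limma in any of the 5 comparisons. Of all genes, 0% to 3.67% were called in these comparisons, so a count of 0 in 11 genes is near the background. At an unadjusted p below 0.05, 1 of the 11 was higher and 0 lower with oligo #1 (Eif3f), and 0 were with oligo #2. Of all genes, 13.4% and 12.9% passed that unadjusted p. Their changes against sirEGFP ran from -0.18 (Eif3e) to 0.27 (Eif3f) with oligo #1 and from -0.19 (Eif3e) to 0.26 (Eif3b) with oligo #2, with medians of -0.055 and 0.074. Eif3f was 10.02, 9.94 and 9.90 in Mock cells, 10.01, 10.13 and 10.00 in sirEGFP cells, 10.40, 10.22 and 10.33 after oligo #1, and 10.32, 10.44 and 10.08 after oligo #2. The oligo #1 arrays of Eif3f were above all control arrays and 1 oligo #2 array was within their range, but the mean difference from sirEGFP, 0.25 ± 0.10, was not called (adjusted p = 0.287). Eif3m, a peripheral subunit, was 11.76, 11.86 and 11.91 in Mock cells, 11.91, 12.08 and 12.08 in sirEGFP cells, 11.91, 11.87 and 11.85 after oligo #1, and 11.83, 11.97 and 11.70 after oligo #2. Here the knockdown arrays were in the Mock range or near it, and the mean difference was -0.17 ± 0.096 from sirEGFP (adjusted p = 0.524) and 0.014 from Mock. The dimmer probe set of Eif3m, not tested on its own, gave a mean difference of -0.22 from sirEGFP.

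None of the 13 genes with eIF4 names, several of which act at the mRNA cap and leader, was called by limma either. Of all genes, 2.47% were called with oligo #1 and 2.26% with oligo #2 against sirEGFP. At an unadjusted p below 0.05, 0 were higher and 1 was lower of the 13 with each siRNA against sirEGFP, beside 13.4% and 12.9% of all genes. With oligo #1, 12 of the 13 were below sirEGFP, with a median of -0.17; with oligo #2, 9 of 13 were below, with a median of -0.070. Of all genes, 44.9% and 51.7% were below sirEGFP. The sirEGFP arrays were above Mock by a median of 0.081 for the same genes. Eif4e2, a cap-binding protein known as a translational repressor, was 8.73, 8.73 and 8.59 in Mock cells, 8.87, 8.62 and 8.52 in sirEGFP cells, 8.57, 8.31 and 8.50 after oligo #1, and 8.48, 8.17 and 8.12 after oligo #2. Its oligo #2 arrays were below all 6 control arrays, and the difference of -0.42 from sirEGFP was not called (adjusted p = 0.144), although it was against the mean of both controls (-0.42, adjusted p = 0.0498). Eif4enif1, which shuttles eIF4E into the nucleus, was 8.73, 8.71 and 8.79 in Mock cells, 8.97, 8.83 and 8.79 in sirEGFP cells, 8.64, 8.47 and 8.67 after oligo #1, and 8.82, 8.74 and 8.69 after oligo #2. All 3 oligo #1 arrays and 1 oligo #2 array lay below every control array, and the difference of -0.27 with oligo #1 from sirEGFP was not called (adjusted p = 0.278).

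The core cap-binding and helicase genes showed no called difference from sirEGFP. Eif4e, the cap-binding subunit, was 0.18 below sirEGFP in the mean of both siRNAs (a difference of -0.18, adjusted p = 0.503). Its dimmer probe sets, not tested on their own, gave -0.20 and, for the dimmest, 0.073. The 3 probe sets of Eif4a1, the main eIF4A helicase, gave differences between -0.028 and 0.050 for both siRNAs. Eif4a2, also an eIF4A helicase gene, had the lowest change of the 13 eIF4 genes with oligo #1, -0.31, which was not called. Eif4g2, a scaffold related to eIF4G, differed by -0.048 with oligo #1 and 0.19 with oligo #2, and neither was called.

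Eif6 encodes a factor that keeps the large subunit from joining too early and also acts in its maturation. It was 8.52, 8.81 and 8.30 in Mock cells, 8.86, 8.26 and 7.78 in sirEGFP cells, 8.88, 8.13 and 8.57 after oligo #1, and 8.86, 8.44 and 8.39 after oligo #2. All groups overlapped, and the mean difference of 0.25 ± 0.21 from sirEGFP (adjusted p = 0.726) became -0.015 without sirEGFP replicate 3, the lowest array.

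**Figure D3:**
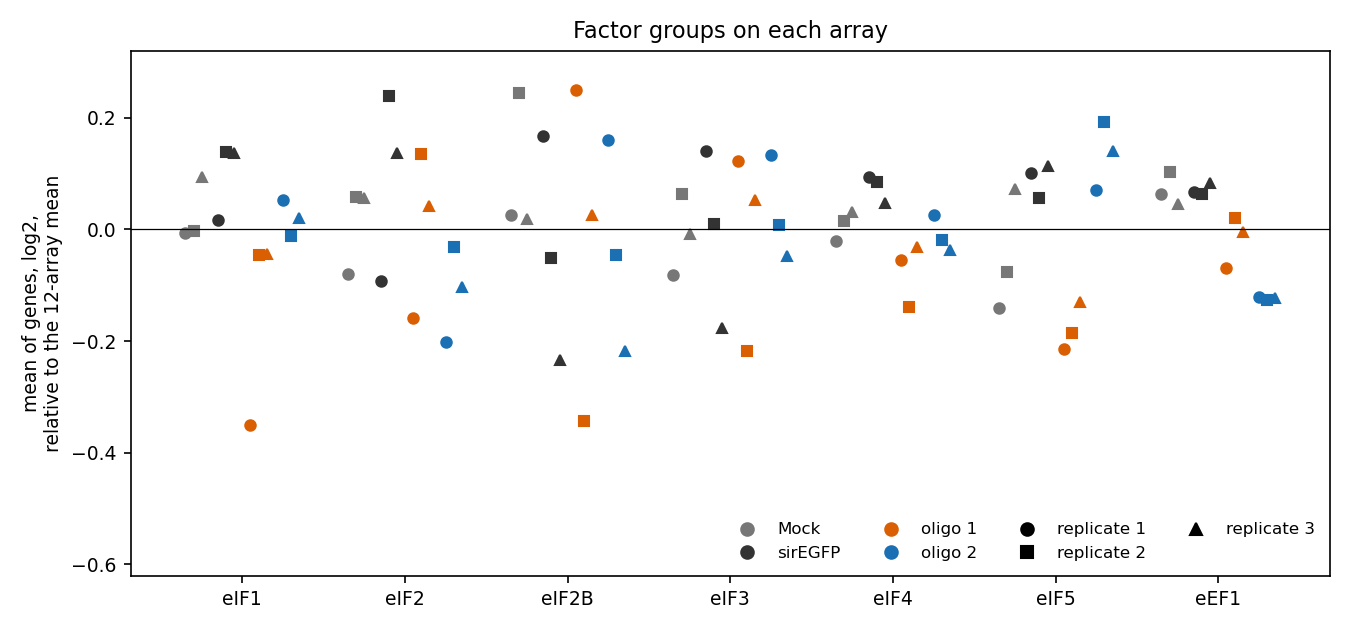
Mean log2 signal of the genes of eIF1, eIF2, eIF2B, eIF3, eIF4, eIF5 and eEF1 on each of the 12 arrays (horizontal axis), relative to the mean of that gene over all arrays (vertical axis). The eIF5 genes are lower on the 3 oligo #1 arrays than on the sirEGFP and oligo #2 arrays, and overlap Mock. The 5 eEF1 genes are lowest on the 3 oligo #2 arrays; without Eef1e1 the other 4 average -0.058 to -0.018 there, and oligo #1 replicate 2 is lowest at -0.067.

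Among the genes grouped with eEF1 by name, Eef1e1 was the gene called with oligo #2. Its product is an auxiliary protein of the tRNA synthetase complex. Neither Eef2 nor the other eEF1 genes were called against sirEGFP. Eef1e1 was 10.68, 10.65 and 10.63 in Mock cells, 10.61, 10.63 and 10.75 in sirEGFP cells, 10.12, 10.80 and 10.36 after oligo #1, and 9.89, 9.95 and 10.04 after oligo #2. The 3 oligo #2 arrays were below the 9 others, while the oligo #1 arrays lay both above and below the controls. Eef1e1 fell by 0.70 ± 0.14 against sirEGFP with oligo #2 (limma, adjusted p = 0.0184), a change of -38.5% on the linear scale, and by 0.69 against Mock (adjusted p = 0.0145). With oligo #1 the difference from sirEGFP was -0.24 (adjusted p = 0.547), and for the mean of both siRNAs it was -0.47 ± 0.13 (adjusted p = 0.0735). The mean of both passed the test without oligo #1 replicate 2, the highest oligo #1 array (adjusted p = 0.00749). The call for oligo #2 was lost when sirEGFP replicate 2 or 3, or any 1 oligo #2 array, was left out (adjusted p from 0.0534 to 0.0909).

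The other eEF1 genes, which encode eEF1A and its exchange factor, showed small differences. Eef1a1, the main eEF1A gene, lay between 13.28 and 13.50 on all 12 arrays, and its mean difference from sirEGFP was 0.0056. Eef1b2, the exchange subunit, was 12.59, 12.54 and 12.63 in Mock cells, 12.57, 12.57 and 12.54 in sirEGFP cells, 12.38, 12.55 and 12.53 after oligo #1, and 12.47, 12.43 and 12.46 after oligo #2. The oligo #2 arrays of Eef1b2 were below every control array by a small margin, and the mean difference was -0.089 ± 0.088 (adjusted p = 0.778).

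Eef2, the translocase of elongation, had the widest spread of all 54 genes. It was 10.99, 11.18 and 10.90 in Mock cells, 11.47, 10.60 and 10.32 in sirEGFP cells, 11.71, 10.35 and 11.31 after oligo #1, and 11.50, 11.01 and 10.98 after oligo #2. Its within-group SD was 0.488, against a median of 0.163 for the 54 genes and 0.174 for all genes. The mean difference from sirEGFP was 0.34 ± 0.27 (adjusted p = 0.677) on all arrays. Without the 3 outlying arrays it was 0.77 and was called (adjusted p = 0.0247), an alternative chosen after the data were seen.

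Other factor genes with a wide spread shared the order of the arrays. In Eif3d, a cap-binding subunit of eIF3, the values were 10.14, 10.51 and 10.08 in Mock cells, 10.56, 9.98 and 9.52 in sirEGFP cells, 10.66, 9.49 and 10.31 after oligo #1, and 10.45, 9.90 and 9.96 after oligo #2. Replicate 1 was the highest of the 3 sirEGFP and the 3 oligo #1 arrays for Eif3d, as for Eef2, Eif6 and Eif2b2. In 9 of the 10 factor genes with the widest spread (Eef2, Eif3d, Eif2b2, Eif6, Eif3l, Eif3k, Eif2b1, Eif1ad, Eif4a3l1 and Eef1d), oligo #1 replicate 1 was above replicate 2 and sirEGFP replicate 1 above replicate 3. The same held for 24 of all 54 genes. These arrays lie far out on the within-group axis, and the part of RNA quality or handling in this order was not tested.

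**Figure D4:**
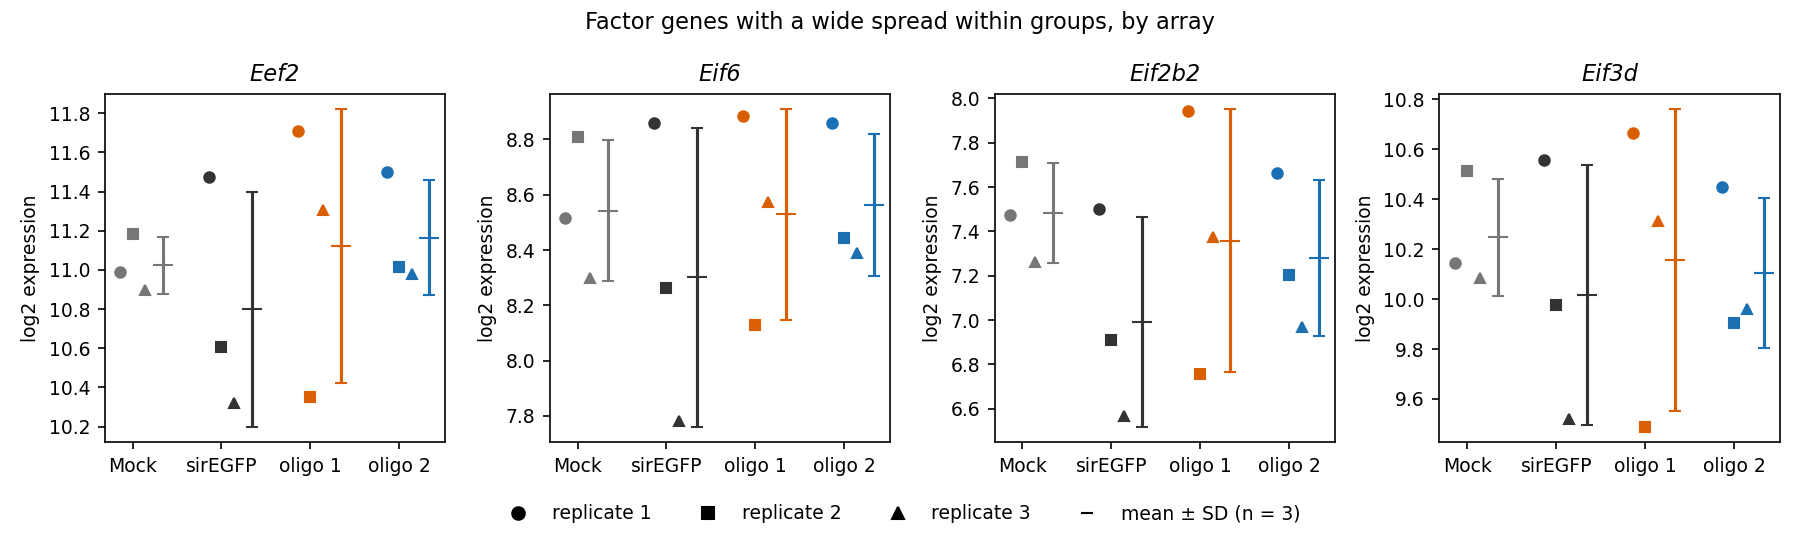
Log2 signal (vertical axis) of Eef2, Eif6, Eif2b2 and Eif3d on each array, by group (horizontal axis), with the group mean and SD (n = 3). The sirEGFP and oligo #1 arrays of each gene spread over a wider range than the differences between group means.

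The proteins named after the factors gave no called change against sirEGFP, beside 2.47% of all genes with oligo #1 and 2.26% with oligo #2. Eif1ad, an eIF1A-like protein that acts in small subunit maturation, was 8.94, 9.27 and 8.86 in Mock cells, 9.33, 8.83 and 8.74 in sirEGFP cells, 9.11, 8.45 and 8.83 after oligo #1, and 8.61, 8.16 and 8.07 after oligo #2. Its oligo #2 arrays were below all control arrays, with a difference of -0.69 from sirEGFP (adjusted p = 0.0981) and a called difference of -0.74 from Mock (adjusted p = 0.0485). Eef2kmt, a lysine methyltransferase of eEF2, was 7.38, 7.12 and 7.18 in Mock cells, 6.99, 7.0 and 7.04 in sirEGFP cells, 7.44, 7.10 and 7.39 after oligo #1, and 7.26, 7.08 and 7.14 after oligo #2. All 6 knockdown arrays of Eef2kmt were above the sirEGFP arrays but within or near the Mock range, and the mean difference of 0.23 ± 0.11 from sirEGFP was not called (adjusted p = 0.377).

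The control siRNA was compared with the reagent alone. Both groups were transfected, so this difference does not measure the effect of transfection itself. No factor gene was called for sirEGFP against Mock, and no gene of all 19938 was (0%). By limma's unadjusted p, 2 factor genes were higher and 0 lower at p below 0.05, beside 6.25% of all genes in either direction. The median difference of the 54 genes was 0.015, against 0.018 for all genes, with extremes of -0.49 for Eif2b2 and 0.38 for Eif5b. In 3 factor genes the sirEGFP arrays were all above the Mock arrays and in 3 all below, beside 6.86% and 3.87% of all genes. These extremes are close in size to the differences from sirEGFP given above, and neither passed the test.

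The UBF siRNAs were also compared with each other, so that the difference involves no control group. For oligo #2 minus oligo #1, 3 of the 54 factor genes (5.56%) were called, and all were higher with oligo #2, beside 3.67% of all genes in either direction, 2.3% higher and 1.37% lower. Among all genes above the median in mean signal, 6.89% were called. At an unadjusted p below 0.05, 6 factor genes were higher and 3 lower, beside 14.4% of all genes. Eif5b was higher by 0.93 ± 0.14 (95% interval 0.64 to 1.22, adjusted p = 0.00155), a 1.90-fold difference. Eif1b was higher by 0.57 ± 0.12 (0.31 to 0.82, adjusted p = 0.0142) and Eif5 by 0.50 ± 0.13 (0.22 to 0.78, adjusted p = 0.0473). In all 3 genes the oligo #2 arrays were above the oligo #1 arrays with no overlap, as in 9 of the 54 factor genes (4 had the reverse order), beside 9.19% of all genes above and 9.14% below. The difference in Eif5b was called in every alternative run. That in Eif1b was lost without oligo #1 replicate 1, oligo #2 replicate 1 or oligo #2 replicate 3 (adjusted p from 0.0531 to 0.0611), and without the 3 outlying arrays (0.314). That in Eif5 was lost without any 1 Mock array, sirEGFP replicate 2 or 3, oligo #1 replicate 1 or 3, or oligo #2 replicate 2 or 3 (0.0545 to 0.182), and without the 3 outlying arrays (0.260). Ubtf differed by -0.052 between the siRNAs (adjusted p = 0.941, 95% interval -0.40 to 0.30).

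Eef1e1 was lower with oligo #2 than with oligo #1 by a difference of -0.46, but this was not called (adjusted p = 0.104, 95% interval -0.77 to -0.15). Its fall with oligo #2 against sirEGFP is therefore not shown to differ from the change with oligo #1. Among the methyltransferases of eEF1A, Eef1akmt2 differed by 0.57 (adjusted p = 0.0702) and Eef1akmt3 by -0.57 (adjusted p = 0.0839) between the siRNAs, and neither passed. The median of the 54 genes was -0.011, against -0.030 for all genes.

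**Figure D5:**
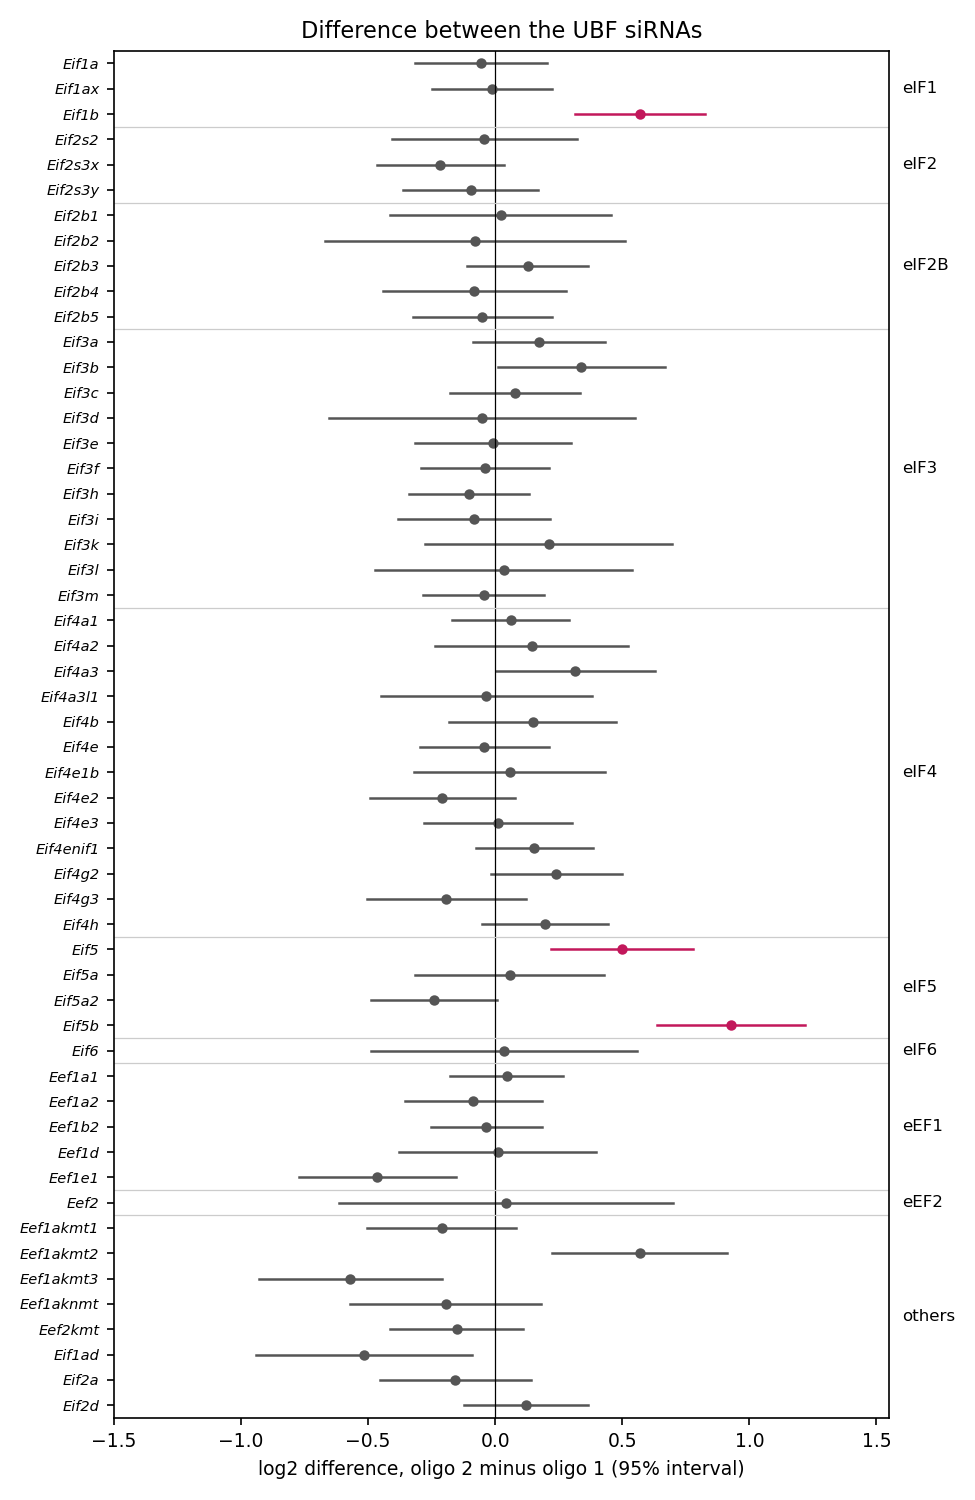
Difference in log2 signal between oligo #2 and oligo #1 (horizontal axis) for each of the 54 factor genes (vertical axis), with 95% intervals from limma. Eif5b, Eif1b and Eif5 passed the test, and the intervals of 6 other genes exclude 0.

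Some markers of other cell types moved in the same comparisons. Csf1r, a macrophage marker, was 0.83 higher with oligo #1 than with sirEGFP (adjusted p = 0.00874), where Eif5 and Eif5b fell. The 5 macrophage markers summed to between 22.2 and 22.9 on the sirEGFP arrays and between 23.6 and 24.1 on the oligo #1 arrays, and 1 of the 5 was called. Fabp4, an adipocyte marker, was 1.65 higher with oligo #2 than with sirEGFP (adjusted p = 0.000143), where Eef1e1 fell. The 4 adipocyte markers summed to between 19.6 and 19.9 on the sirEGFP arrays and between 21.0 and 21.1 on the oligo #2 arrays, with 1 of 4 called. Of the fibroblast markers, Pdgfrb was also higher with oligo #2, by 1.75 (adjusted p = 0.0126). Of the epithelial and skeletal muscle markers none was called in these comparisons. These log2 signals have no true 0, and the part of such cells or states in the changes of Eif5, Eif5b and Eef1e1 was not tested.

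Regulators of the factors were examined as 1 list of 34 genes, of which 32 were measured: the eIF2 and eEF2 kinases, eIF4E-binding proteins, phosphatase subunits, mTOR pathway genes and poly(A)-binding partners. With oligo #1, 1 of 32 was called beside 2.47% of all genes. It was Paip1, whose protein links poly(A)-binding protein to eIF4A and eIF3. Paip1 was 9.21, 9.19 and 9.37 in Mock cells, 9.34, 9.65 and 9.64 in sirEGFP cells, 8.0, 9.02 and 8.47 after oligo #1, and 9.60, 9.91 and 9.73 after oligo #2. Its oligo #1 arrays were below the 9 others, and it fell by 1.05 ± 0.20 against sirEGFP (adjusted p = 0.0105). The call was lost with the compared groups alone (adjusted p = 0.104), against Mock (-0.76, adjusted p = 0.0533) and without sirEGFP replicate 2 or oligo #1 replicate 3 (0.0659 and 0.0504). With oligo #2 the difference was 0.20 (adjusted p = 0.761), and between the siRNAs it was 1.25 ± 0.20 (adjusted p = 0.0022). Paip1 was the 1 regulator of 32 called between the siRNAs, beside 3.67% of all genes. No regulator was called with oligo #2, in the mean of both, or for sirEGFP against Mock. For Eif2ak2 and Impact all 6 knockdown arrays were above all 6 control arrays (1.43% of all genes), and for Denr below them (0.692%). The other measured regulators overlapped. Eif2ak2, Impact and Denr were not called against sirEGFP. At limma's unadjusted p below 0.05, 6 of 32 were higher and 3 lower with oligo #1, 3 higher and 1 lower with oligo #2, and 6 higher and 3 lower in the mean of both, beside 13.4%, 12.9% and 13.2% of all genes. The list's median change was 0.13 with oligo #1 and 0.048 with oligo #2.

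Termination, recycling and mitochondrial translation factors formed a list of 16 genes, all measured. With oligo #1, 1 of 16 was called beside 2.47% of all genes, and with oligo #2 minus oligo #1 the same gene beside 3.67%. It was Etf1, which encodes the release factor eRF1 that reads stop codons. Etf1 was 9.83, 10.06 and 10.10 in Mock cells, 10.07, 10.36 and 10.24 in sirEGFP cells, 9.46, 9.83 and 9.63 after oligo #1, and 10.12, 10.26 and 10.19 after oligo #2. The oligo #1 arrays of Etf1 were below all sirEGFP arrays and touched the lowest Mock array, and it fell by 0.58 ± 0.13 against sirEGFP (adjusted p = 0.0277). The call was lost with the compared groups alone (adjusted p = 0.129), against Mock (-0.35, adjusted p = 0.208), without the 3 outlying arrays (0.0835) and without sirEGFP replicate 2 or 3 or oligo #1 replicate 1 or 3 (0.0979 to 0.147). With oligo #2 the difference was -0.030, and between the siRNAs it was 0.55 ± 0.13 (adjusted p = 0.0265). This last call was lost with the compared groups alone (0.0730), without the 3 outlying arrays (0.150), without oligo #1 replicate 1 or 3, and without any 1 oligo #2 array (0.0589 to 0.104). No other gene of this list was called in any of the 5 comparisons, and the list's median was 0.072 with oligo #1 and -0.036 with oligo #2.

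The upstream windows of the factor genes were searched for the same motifs on both strands. A RefSeq window was found for 42 of the 54 genes. The GC box GGGCGG was in the windows of 30 of the 42 genes (71.4%), against 35.4% of 27025 genes with a window and 65% of those above the median in signal; over all 32851 windows the share was 32.7%. The E-box CACGTG was found for 10 genes (23.8%): Eef1aknmt, Eef2, Eif1b, Eif3f, Eif3k, Eif4a1, Eif4e, Eif4h, Eif5a and Eif5a2. Its share was 6.86% of all genes with a window, 10.2% of those above the median in signal and 6.02% of all windows. The median change in the mean of both siRNAs was 0.0020 for the 10 genes with the E-box and -0.093 for the 32 without it. A match says only that these letters are present in the window.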

How the data were processed

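RNA of 12 NIH3T3 cultures was hybridised to Affymetrix arrays, 3 for each of 4 groups. The authors deposited 1 table of log2 values per probe set and array; the scale was read from the values. The submitters' processing notes name limma, without a step. How these values were summarised, normalized, centred and corrected for background is not given in the sources used here, so signal over background could not be judged. Of 35512 probe sets, 21789 carried 1 gene symbol, 1621 several and 12102 none; symbols were updated through Entrez identifiers (21698 matched to RefSeq, 91 not). Genes with several probe sets (999) were represented by the one with the highest mean, giving 19938 genes. The 54 factor genes had 63 probe sets; 10 further probe sets name a factor together with other genes and were not used.

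Groups were compared with limma 3.58.1 in R 4.3.3 (lmFit, contrasts.fit and eBayes, 12 arrays, 8 residual degrees of freedom, two-sided), in 5 comparisons. Adjusted p-values are Benjamini-Hochberg over all 19938 genes within a comparison. In simulated data, 31 of 100 genes changed by 0.58 and 87 of 100 changed by 1 were recovered, with 4 false calls, so changes near 0.58 were often missed there with 3 arrays a group. The simulated noise was independent between genes, whereas 1 axis held 41.5% of the within-group variance of the real arrays. These rates are therefore only a rough guide to the real data. The p-values measure the spread between arrays. Values by array are given for each factor gene called in any of the 5 comparisons. Per factor group, they are also given for the 2 genes with the smallest p in the mean of both UBF siRNAs against sirEGFP. Other factor genes named were chosen after their values were seen. From the lists of other translation genes, those called are named, with the regulators whose knockdown arrays lay beyond all control arrays. The latter were chosen after their values were seen. The members, lists and alternatives were chosen with earlier results of these data known. Alternatives covered scaling, dim genes, probe sets, the replicate block, the arrays in the fit, variance moderation, the control group and each array left out. Replicate numbers are shared between groups, but the labels state no pairing. Of 18 same-numbered pairs, 6 had a correlation of deviations of 0.1 or less, most of them with a Mock array. The numbers were therefore a block only in an alternative, not pairs in the main fit.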

Additional observations from a re-analysis of the deposited data

Results flagged for a closer look

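In 5 translation genes, the difference between the UBF siRNAs, oligo #2 minus oligo #1, passed limma's test of that difference over all genes. They were 3 of 54 factor genes, 1 of 32 regulators and 1 of 16 termination, recycling and mitochondrial factors. Of all genes 3.67% passed, and of those above the median in mean signal 6.89%, so the counts are near the background. Eif5b was higher by 0.93 on the log2 scale, with 3 of 3 oligo #2 arrays above the highest oligo #1 array. Eif1b was higher by 0.57 and Eif5 by 0.50, with the same separation of arrays. Outside the factor list, the difference was 1.25 for Paip1 and 0.55 for Etf1. In these 5 genes the oligo #1 arrays were below sirEGFP; oligo #2 arrays were within or above the sirEGFP range, apart from 1 Eif5 array. Groups of 3 arrays are too small for a test of single outlying arrays, and none was made.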

How the results depend on the processing

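The counts of called factor genes rest on few genes near the threshold. For oligo #1 against sirEGFP the count of 2 became 0 with the compared groups alone, with Mock as control and without the 3 outlying arrays, rose to 3 with the mean of both controls (Eif5, Eif5b and Eif1b), and ran from 0 to 2 when 1 array was left out; it was 0 without sirEGFP replicate 2 or 3 or oligo #1 replicate 1 or 3, and 1 (Eif5b) without Mock replicate 1 or 2 or oligo #2 replicate 3. For oligo #2 against sirEGFP the count of 1 became 4 with Mock as control (Eef1e1, Eif1ad and Eef1akmt1 lower, Eif5b higher), 4 with the mean of both controls (Eef1e1, Eif1ad and Eif4e2 lower, Eif5b higher), and 2 without the 3 outlying arrays (Eef1e1 lower, Eef2 higher). It ran from 0 to 1 when 1 array was left out, and was 0 without sirEGFP replicate 2 or 3 or any 1 oligo #2 array. For the mean of both siRNAs the count of 0 became 1 with the mean of both controls (Eef1e1) and 2 without the 3 outlying arrays (Eef1e1 lower, Eef2 higher), with 0 to 1 when 1 array was left out (Eef1e1 without oligo #1 replicate 2). For oligo #2 minus oligo #1 the count of 3 became 1 (Eif5b) with the compared groups alone and without the 3 outlying arrays, and ran from 1 to 4 when 1 array was left out (1, Eif5b, without oligo #2 replicate 3). The count for sirEGFP against Mock was 0 in every alternative. Against Mock, the shares of all genes called were 2.75% for oligo #1, 4.25% for oligo #2 and 3.3% for their mean. Against the mean of both controls they were 3.78%, 4.91% and 4.93%, and against sirEGFP 2.47%, 2.26% and 1.93%. Leaving out the 3 arrays was chosen after seeing the data. For that fit, the compared groups alone and each array left out, the share of all genes called is not given here. Fewer arrays leave fewer residual degrees of freedom; beyond that the cause was not tested.

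The replicate number as a block gave 2 called factor genes for oligo #1, 2 for oligo #2 (Eef1e1 and Eif1ad), 1 for the mean of both (Eef1e1, adjusted p = 0.0439), 0 for sirEGFP against Mock and 3 for oligo #2 minus oligo #1. The share of all genes called in that fit is not given here, so these counts stand without a background. Ubtf passed the test with the block against sirEGFP (adjusted p = 0.0172, 0.0115 and 0.00715 for oligo #1, oligo #2 and their mean). Of 18 same-numbered pairs, 12 had a correlation of deviations above 0.1 (range -0.237 to 0.551), and 9 of 12 arrays correlated best with their own number, as a hint from the data and not the design.

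With Mock in place of sirEGFP, the mean difference of both siRNAs changed sign for Eif1a (0.049), Eif2s3x (0.013), Eif2b2 (-0.16), Eif3m (0.014) and Eif5b (0.19), and for Eif6 it was -0.015 without sirEGFP replicate 3 (range over single arrays left out -0.015 to 0.52). None of these was called with sirEGFP as control. Of 1166 medians of factor groups under the alternatives, 1110 stayed within 1 within-group SD. This count is partly fixed in advance. The block, the compared groups alone, variance moderation and leaving out an array of a group not compared cannot change a difference. The eIF4 median with oligo #1 moved most often, in 8 of 22 alternatives, with values from -0.22 to -0.045. The scaling alternatives kept the median of all genes between -0.029 and 0.018. Ubtf against sirEGFP passed the test under quantile normalization for oligo #2 (adjusted p = 0.0321) and for the mean of both (0.0253), and for the mean of both with array median centring (0.0412) and without the dimmest genes (0.0434). It also passed without sirEGFP replicate 3 for oligo #2 (0.0490) and the mean of both (0.0432), and without oligo #1 replicate 1 for the mean of both (0.0405). The counts of called factor genes under array scaling, the filter on dim genes, the mean of probe sets and trended variance moderation stayed within 1.5 times those reported. Signal over background cannot be judged from these values.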
